A study of Mus musculus with 28 samples.

Results

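The genes described here are 10 chaperones and folding enzymes of the endoplasmic reticulum (ER): Hspa5, Hsp90b1, Calr, Canx, Pdia3, Pdia4, Pdia6, Hyou1, Dnajb11 and Manf. They were chosen by gene symbol, and they are 10 of the 55487 genes of the counts table. Their mRNA was measured by RNA-seq in mouse hypothalamus, in RNA bound to eGFP-tagged ribosomes of cells that express the long leptin receptor LepRb (bead fraction) and in the RNA left after these ribosomes were removed (depleted fraction). All mice carried the LepRb-eGFP-L10a reporter, were 10 to 13 weeks old, of both sexes, and had no food from lights-on. In each fraction, the vehicle groups were 4 libraries of wild-type mice at 3 h, 1 library of wild-type mice at 10 h and 2 libraries of ob/ob mice, which make no functional leptin, at 10 h. The groups given metreleptin (recombinant leptin, 5 mg per kg, into the peritoneum) were 3 libraries of wild-type mice at 3 h, 3 of wild-type mice at 10 h and, at the same time, 1 of ob/ob mice. Each of the 14 lysates gave 1 bead and 1 depleted library. The labels used here do not say whether a lysate held 1 mouse or several, so p-values measure only the spread between these lysates. The tag marks cells with an active LepRb gene, of any kind.

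Secreted and membrane proteins fold in the ER lumen, where chaperones of the HSP70 and HSP90 families, the lectin chaperones and the protein disulfide isomerases hold them until they are folded and oxidised. When unfolded proteins accumulate, the sensors Ern1 (IRE1), Eif2ak3 (PERK) and Atf6 start the unfolded protein response, in which ATF6 and spliced XBP1 raise transcription of chaperone genes. Neurons that secrete peptides load this machinery with prohormones, and ER stress in the hypothalamus is known for its association with leptin resistance in obesity.

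The 10 genes fall into 3 groups by role. Hspa5 (BiP; chr2:34771970-34777547, GRCm38, plus strand) is the HSP70 of the ER lumen, and Hyou1 (chr9:44379490-44392369, plus strand) is its large relative and nucleotide exchange factor. Dnajb11 (chr16:22857845-22879634, plus strand) is a J-domain cochaperone of BiP. Manf (chr9:106838312-106891979, minus strand) encodes a secreted and ER-resident factor that binds BiP. Hsp90b1 (GRP94; chr10:86690209-86705509, minus strand) is the HSP90 of the ER. Calr (calreticulin; chr8:84841850-84846934, minus strand) and Canx (calnexin; chr11:50293961-50325673, minus strand) are the soluble and the membrane-bound lectin chaperones of glycoproteins. Pdia3 (ERp57; chr2:121413775-121438687, plus strand), Pdia4 (chr6:47796141-47813430, minus strand) and Pdia6 (chr12:17266545-17284770, plus strand) are protein disulfide isomerases, which form and exchange disulfide bonds. The library kit did not mark the strand, so reads cannot be separated from those of an overlapping gene on the other strand for Pdia3 (Catsper2), Pdia6 (Atp6v1c2), Dnajb11 (Gm30505), Hsp90b1 (1810014B01Rik) and Manf (Dcaf1 among others). No gene of the annotation overlaps Hspa5, Calr, Canx or Hyou1.

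Several of these genes share a promoter element. The ER stress response element (ERSE) consists of CCAAT and CCACG with 9 bases between them, the parts bound by the factor NF-Y and by ATF6 or XBP1. Promoters, from 250 bases before to 50 after the start of each gene, were taken from RefSeq (GRCm38.p6) and searched on both strands. Of the 10 genes, 8 had a promoter there. Hyou1 and Manf had no entry, so their promoters were not searched. The element was present in 5 of these 8 promoters (62.5%), against 39 of all 32851 promoters of the same length (0.119%). ATF6 and XBP1 act on chaperone genes, so this share is not independent of the choice of genes. The matches are printed because they are the sequence that these members have in common; each is shown 5′ to 3′ on the strand of its gene with 5 flanking bases, and capitals mark the CCAAT and CCACG parts or their reverse complements ATTGG and CGTGG.
Hspa5, chr2:34772020-34772048, plus strand: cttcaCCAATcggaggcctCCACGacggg
Hsp90b1, far copy, chr10:86705633-86705661, minus strand: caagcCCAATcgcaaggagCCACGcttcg
Hsp90b1, near copy, chr10:86705528-86705556, minus strand: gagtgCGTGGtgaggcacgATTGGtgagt
Calr, chr8:84847070-84847098, minus strand: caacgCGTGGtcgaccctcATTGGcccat
Canx, chr11:50325795-50325823, minus strand: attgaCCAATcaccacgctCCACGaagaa
Pdia6, chr12:17266486-17266514, plus strand: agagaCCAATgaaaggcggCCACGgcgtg

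The element of Hspa5 lay at -65 to -47 from the RefSeq start; the Hspa5 gene model used for positions begins further upstream, so this window falls inside that model. Hsp90b1 was the member with 2 copies, at -212 to -194 and, in the opposite orientation, at -107 to -89. The element lay at -162 to -144 in Calr, at -145 to -127 in Canx and at -98 to -80 in Pdia6. A related element, ERSE-II (ATTGG and CCACG with 1 base between them), was found in Dnajb11 at 8 to 18 and in 0.0365% of all promoters. The XBP1 and ATF6 core TGACGTGG was in none of the 8 promoters and in 0.676% of all. A STAT site (TTC and GAA with 3 bases between them), the kind of site bound by the leptin-activated factor STAT3, was in none of the 8 and in 8.3% of all promoters. The single parts were common: CCAAT was in 8 of 8 member promoters and 37.4% of all, and CCACG in 7 of 8 and 32.8% of all, and both are contained in ERSE. These matches describe the letters in the windows only.

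Bead libraries held 21277982 to 42267040 counts and depleted libraries 19649105 to 41804049, and the 10 genes had 273 to 13344 counts in bead and 255 to 9995 in depleted libraries. Levels are CPM, a gene's counts relative to the library's total after TMM scaling. All 12 LepRb neuron markers were higher in beads (median log2 fold change 2.96), and all 36 markers of astrocytes, oligodendrocytes and microglia were lower. Lepr itself was at 6.52 to 12.4 CPM in bead and at 1.45 to 3.15 CPM in depleted libraries, with no overlap. 3 lysates stood apart by pituitary hormone mRNA: vehicle m3 and leptin f2 of 3 h and the only ob/ob leptin lysate. Gh was at 57.5, 538.6 and 22.5 CPM in their bead and at 233, 1268 and 121 CPM in their depleted libraries, against at most 1.498 CPM in the other 11 lysates. Fits without m3 and f2 keep the ob/ob leptin lysate. The 3 h libraries were sequenced in 1 run, the wild-type 10 h libraries in another and the ob/ob libraries in one more.

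All 10 ER chaperones were expressed in both fractions, and Calr led the order of levels per transcript length. In RPKM (CPM per kilobase of exon), the bead level of Calr was 73.0 ± 9.94 (SD, n = 14), followed by Pdia3 with 61.2 ± 9.26, Hspa5 with 60.4 ± 7.07 and Canx with 59.5 ± 8.97. The ranges of these 4 overlapped in the bead libraries. Hsp90b1 was at 41.0 ± 5.96 and Pdia6 at 24.6 ± 2.98 RPKM, and the bead libraries of these 2 did not overlap (lowest Hsp90b1 33.9, highest Pdia6 29.0). Manf had 16.9 ± 2.26 and Hyou1 15.5 ± 2.40 RPKM, closer together than their spread. Dnajb11 with 9.80 ± 1.24 and Pdia4 with 8.28 ± 1.60 RPKM were the lowest, and their ranges overlapped. In the depleted libraries Calr was again first (49.9 ± 7.87 RPKM, n = 14) and Pdia4 last (6.24 ± 0.863), while Canx (45.6 ± 6.32) stood before Pdia3 (32.5 ± 4.44) and Hspa5 (30.0 ± 4.29).

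Every one of the 10 genes was higher in the bead than in the depleted fraction. With the lysate as a block, 10 of 10 passed the edgeR quasi-likelihood test at a Benjamini-Hochberg adjusted p under 0.05, with a median log2 fold change of 0.65; of the 19682 genes tested 38.6% were called higher in beads, and the median of all genes was -0.01. Summed over the 10 genes, the level was 1160 to 1733 CPM in bead libraries (median 1426) and 680 to 1120 CPM in depleted libraries (median 883). The comparison sets RNA on ribosomes of LepRb cells against RNA of all cells, bound or not, so enrichment by cell type and by ribosome binding cannot be told apart, nor can fewer cells of a type be told from less RNA per cell.

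**Figure D1:**
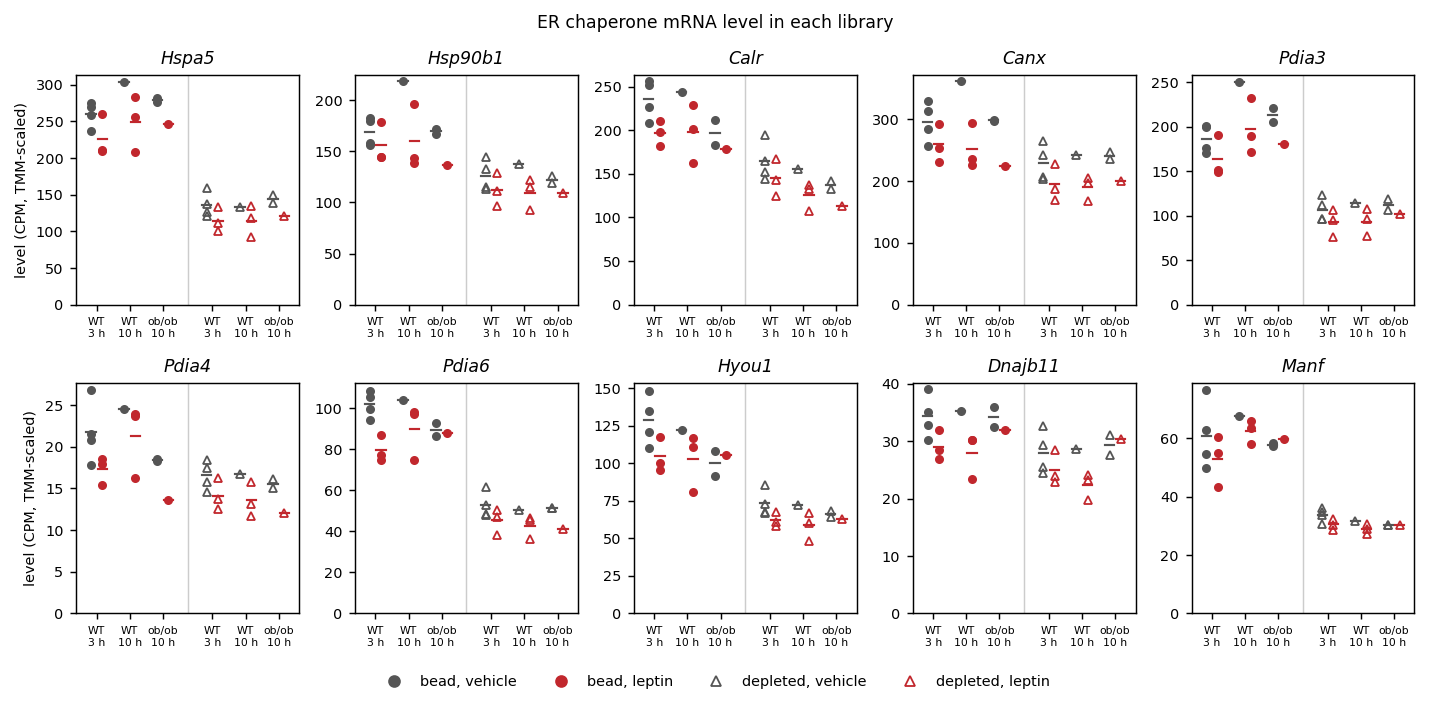
Level of each ER chaperone (y axis, CPM scaled by TMM, from 0) in each of the 28 libraries by genotype and time; filled circles are bead and open triangles depleted libraries, grey is vehicle and red is leptin, and short lines are group means. For Hspa5, Pdia3, Pdia6 and Manf every bead library lies above every depleted library. How many of all genes separate in this way was not counted.

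BiP and its partners held the top and the bottom of the order. Hspa5 was at 208 to 303 CPM in the bead libraries (median 259) and at 92.0 to 159 CPM in the depleted libraries (median 130). The fractions did not overlap, but the share of all genes without overlap was not counted. The Hspa5 log2 fold change was 1.01 (SE 0.0386, adjusted p = 2.70e-14), or 2.02-fold, and the ratio within a lysate was 1.70 to 2.40, above 1 in 14 of 14 lysates. Manf, the BiP-binding secreted factor, was at 43.4 to 76.4 CPM in beads (median 59.2) and 27.2 to 36.3 CPM in depleted libraries (median 30.5). Its log2 fold change of 0.93 (SE 0.0577, adjusted p = 1.67e-11) had the widest spread between lysates of the 10 genes (SD 0.235). The Manf ratio was highest in the vehicle lysate m3 (2.50) and lowest in the leptin lysate f2 (1.43), both rich in pituitary mRNA. It was 1.98 in the ob/ob leptin lysate, also pituitary-rich, and 1.48 in the 3 h vehicle lysate f3, which was not. The part of pituitary mRNA in this spread was not tested.

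Hyou1 was at 80.8 to 148 CPM in beads (median 110) and 48.5 to 85.5 CPM in depleted libraries (median 67.1), a log2 fold change of 0.76 (SE 0.0381, adjusted p = 9.89e-13). Its fractions overlapped between lysates, although within each of the 14 lysates the bead library was higher. Dnajb11, the J-domain cochaperone, had the smallest difference of the 10: 23.5 to 39.1 CPM in beads (median 32.0) against 19.8 to 32.6 CPM (median 26.5), a log2 fold change of 0.26 (SE 0.0371, adjusted p = 2.32e-06). Hsp90b1 was at 137 to 219 CPM in beads (median 162) and 92.0 to 144 CPM in depleted libraries (median 117), with a log2 fold change of 0.48 (SE 0.0398, adjusted p = 1.05e-09).

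The lectin chaperones differed less between fractions than Hspa5. Calr was at 163 to 256 CPM in beads (median 209) and 107 to 195 CPM in depleted libraries (median 142), a log2 fold change of 0.55 (SE 0.0346, adjusted p = 1.84e-11). Canx was at 225 to 363 CPM (median 289) and 168 to 265 CPM (median 206), a log2 fold change of 0.38 (SE 0.0357, adjusted p = 6.17e-09). Both lectins overlapped between the fractions when lysates were ignored.

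Among the disulfide isomerases, Pdia6 and Pdia3 stood high and Pdia4 low. Pdia6 was at 74.6 to 109 CPM in beads (median 93.5) and 36.1 to 61.6 CPM in depleted libraries (median 48.2), a log2 fold change of 0.95 (SE 0.0438, adjusted p = 3.44e-13). Pdia3 was at 149 to 250 CPM (median 190) and 75.7 to 123 CPM (median 104), a log2 fold change of 0.91 (SE 0.0497, adjusted p = 2.82e-12). The fractions of these 2 genes did not overlap, but the share of all genes without overlap was not counted. Pdia4 was at 13.6 to 26.9 CPM in beads (median 18.5) and 11.7 to 18.5 CPM in depleted libraries (median 15.4), a log2 fold change of 0.40 (SE 0.0528, adjusted p = 7.92e-07).

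**Figure D2:**
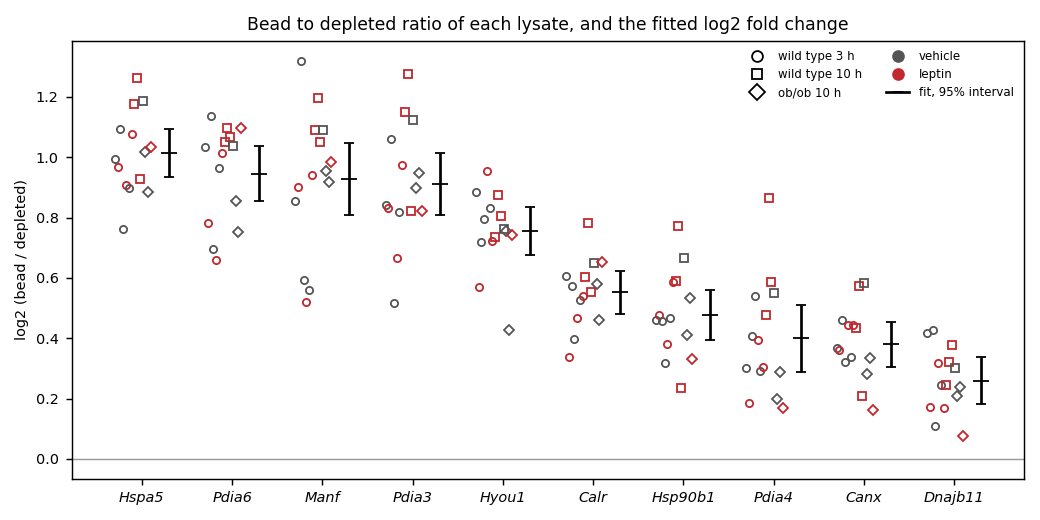
Log2 ratio of bead to depleted level in each of the 14 lysates (symbols by genotype and time, grey vehicle, red leptin), with the fitted log2 fold change and its 95% interval in black; 0 is no difference. All 14 lysates lie above 0 for each gene, and the genes run from Hspa5 (1.01) to Dnajb11 (0.26).

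The enrichment was not the same for all 10. The differences between genes within a lysate were compared for the 45 pairs by an exact two-sided sign-flip permutation test over the 14 lysates, whose smallest possible p is 0.00012207; 35 pairs had a Benjamini-Hochberg adjusted p under 0.05. Between neighbours in the order, Hyou1 exceeded Calr by 0.20 log2 units in 13 of 14 lysates (adjusted p = 0.000439, exact permutation test), and Canx exceeded Dnajb11 by 0.12 in 12 of 14 (adjusted p = 0.00711, exact permutation test). The other 7 steps between neighbours did not pass. Between adjacent members of Hspa5, Pdia6, Manf and Pdia3 the differences were 0.02 to 0.07 log2 units, while Hspa5 exceeded Pdia3 by 0.10 in 12 of 14 lysates (adjusted p = 0.00183, exact permutation test).

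With library totals in place of TMM, the median of all genes was -0.19 in place of -0.01, and 5393 genes were called higher and 9925 lower, against 7603 and 7730. All 10 members were still called higher under that scaling, with smaller log2 fold changes of 0.08 for Dnajb11, 0.20 for Canx, 0.22 for Pdia4 and 0.30 for Hsp90b1. Without the lysates m3 and f2 all 10 were again called, at 0.24 to 1.01, and without the ob/ob leptin lysate all 10 as well, at 0.27 to 1.01.

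Other ER genes were taken from 10 lists of the pathway. Their counts stand beside the 38.6% of all genes tested that were called higher in beads. In the bead fraction, 10 of 12 other ER cochaperones and luminal factors were higher and 1 lower (median log2 fold change 0.38), led by Sdf2 (0.93) and Sdf2l1 (0.83), with Dnajc1, a membrane J protein, at -1.07. Of 11 other disulfide isomerases and oxidases, 8 were higher and 1 lower (median 0.46): Erp29 was at 0.83, Txndc5 at 0.64 and the oxidase gene Ero1lb at -0.26, a call lost without the lysate block (adjusted p = 0.0838, edgeR). Of 13 genes of glycan transfer and the lectin cycle 10 were higher and 3 lower (median 0.46), from the oligosaccharyltransferase subunits Ostc (1.02) and Dad1 (0.98) to Clgn (-0.50), the calmegin gene. Of 18 genes of translocation and signal peptide cleavage 13 were higher and 2 lower (median 0.63), with the translocon subunit Sec61b at 1.24, the signal peptidase subunit Spcs1 at 1.09 and Sec63 at -0.59. For ER-associated degradation the counts were 10 higher and 2 lower of 15 (median 0.25), from Selenok (0.88) and the ATPase Vcp (0.58) to Edem1 (-0.79).

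Of 12 genes of ER calcium handling 6 were higher and 2 lower (median 0.10), with Rcn1 at 0.999, the calcium pump Atp2a3 at 0.53 and the ryanodine receptor Ryr2 at -1.54. Of 7 ER prolyl isomerases 3 were higher and 4 lower (median -0.26), from Fkbp11 (0.59) and Fkbp2 (0.24; not called with library totals, 0.07) to Fkbp9 (-0.84). The sensors and transcription factors had 4 of 12 higher and 7 lower (median -0.19): Xbp1 was higher at 0.90 (SE 0.0471, adjusted p = 1.62e-12, edgeR) and Creb3l1 at 0.38, while Creb3l2 was lower at -0.41. Of the ATF4 targets 6 of 12 were higher and 4 lower (median 0.27), with Atf3 at 2.91, Gadd45a at 0.96 and Nupr1 at -1.86. Cytosolic and mitochondrial chaperones, which work outside the ER, were higher in 18 of 22 and lower in 3 (median 0.54), with Hspe1 at 0.995, Hspa1b at 0.96 and the small heat shock gene Hspb1 at -0.27, a call lost under 13 of 23 alternatives. Higher bead levels were thus also called for most chaperones of other compartments.

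**Figure D3:**
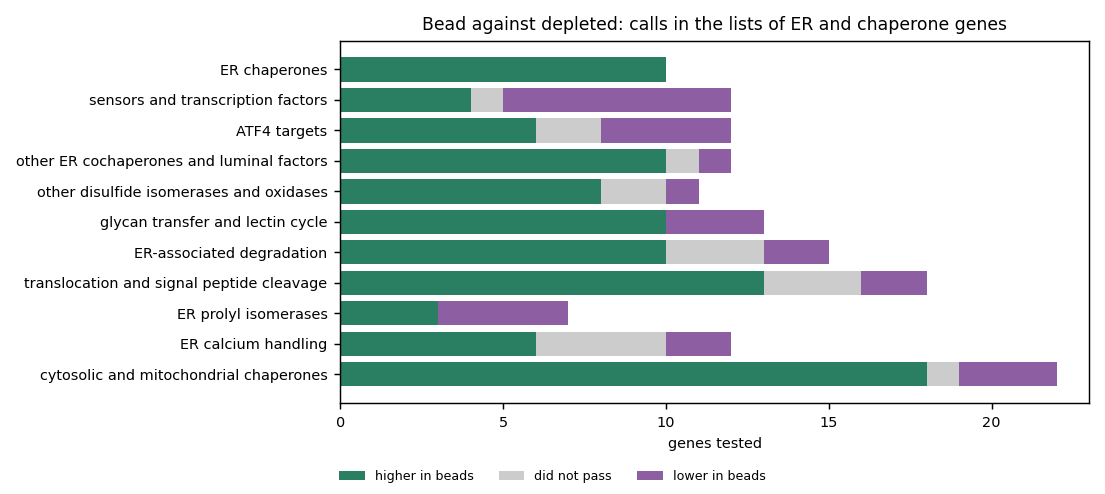
Number of genes (x axis) called higher in beads (green), called lower (purple) or not passing (grey) in the ER chaperones and the 10 other lists (rows). The ER chaperones are green throughout (10 of 10), and the sensors and transcription factors are mostly purple (7 of 12).

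Of the other stress genes with single values, 1 was higher and both others were lower in beads. Herpud1, an ER membrane protein of the degradation pathway, was higher in beads at 0.38 (SE 0.0346, adjusted p = 4.19e-09, edgeR). Atf4 was lower at -0.16 (SE 0.0389, adjusted p = 0.00113) and Ddit3, the CHOP gene, was lower at -0.34 (SE 0.0382, adjusted p = 7.59e-08). Genes with the ERSE in the promoter were 37 in the RefSeq table. Of these, 21 were found under the same symbol and tested, and 13 were higher and 4 lower in beads (median of the 21 0.20). Ero1b was not among the 21, because the counts hold this gene as Ero1lb, lower in beads at -0.26. The 13 include the 5 members already given as higher, and 38.6% of all genes tested were called higher.

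No ER chaperone passed the edgeR test for leptin in either fraction with the filter on low counts. At 3 h in beads all 10 estimates were negative, from -0.12 (Hsp90b1) to -0.36 (Pdia6), with 0 of 10 called by edgeR, 1 of 10 at an unadjusted p under 0.05 (7.48% of all genes), and 0 called by DESeq2 or limma voom; 0.022% of the 18212 genes tested were called. At 10 h in beads, as the mean over both genotypes, the estimates ran from -0.05 (Manf) to -0.48 (Canx), with 0 called by the 3 tools (0.022% of all genes by edgeR) and 3 of 10 unadjusted (9.09% of all genes). In the depleted fraction the estimates were -0.16 to -0.26 at 3 h (0 called by the 3 tools and 0% of 19115 genes by edgeR; 2 of 10 unadjusted and 9.48% of all genes) and -0.08 to -0.34 at 10 h (0 called by the 3 tools and 0.00523% of all genes by edgeR; 4 of 10 unadjusted and 8.98% of all genes). With no filter on low counts, edgeR called 4 of the 10 lower at 3 h and 5 at 10 h in depleted RNA, and Canx at 10 h in beads (adjusted p = 0.0292). These unfiltered fits called 640, 592 and 465 genes in all, in that order. The median of the 10 was -0.22 at 3 h in both fractions, and -0.25 at 10 h in both, while the median of all genes lay between -0.01 and 0.01.

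Pdia6, a disulfide isomerase, had the lowest estimate at 3 h in beads. Its level was 109, 106, 99.6 and 94.3 CPM in the vehicle libraries m1, m3, f1 and f3, and 87.2, 74.6 and 77.1 CPM in the leptin libraries m24, f2 and f4. The groups did not overlap, but how many of all genes separate like this was not counted. The log2 fold change was -0.36 (95% interval -0.61 to -0.12, adjusted p = 0.656, edgeR) and did not pass. At 10 h Pdia6 was at 104 CPM with vehicle and 74.8, 98.0 and 97.4 CPM with leptin in wild type, and at 92.6 and 86.7 CPM against 88.1 CPM in ob/ob mice, so that the ob/ob leptin library lay between the vehicle libraries.

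Hspa5 was at 275, 259, 270 and 237 CPM in the 3 h vehicle bead libraries and at 260, 209 and 211 CPM in the leptin ones, which overlapped (log2 fold change -0.20, 95% interval -0.46 to 0.06). At 10 h it was at 303 CPM with vehicle against 208, 283 and 255 CPM with leptin in wild type, and at 281 and 277 CPM against 246 CPM in ob/ob mice. In the depleted libraries Hspa5 was at 138, 121, 159 and 127 CPM with vehicle and 133, 112 and 99.9 CPM with leptin at 3 h. The interval of the leptin effect at 10 h in beads was -0.53 to 0.03, which includes 0.

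Canx had the largest estimate at 10 h. Its bead level was 363 CPM with vehicle and 226, 294 and 237 CPM with leptin in wild type, and 299 and 297 CPM against 225 CPM in ob/ob mice. Leptin libraries lay below vehicle libraries in each genotype (log2 fold change -0.48, 95% interval -0.78 to -0.19, adjusted p = 0.379, edgeR), in a comparison in which the wild-type vehicle group and the ob/ob leptin group had 1 library each. In beads at 10 h, leptin libraries also lay below vehicle libraries in each genotype for Hspa5, Hsp90b1, Calr, Pdia3, Pdia4 and Dnajb11. How many of all genes separate like this was not counted. At 3 h Canx was at 314, 285, 331 and 257 CPM with vehicle and at 293, 254 and 231 CPM with leptin, and the groups overlapped.

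Manf had the estimate nearest 0 at 10 h in beads (-0.05, 95% interval -0.39 to 0.29). At 3 h it was at 62.9, 76.4, 54.7 and 49.9 CPM with vehicle and 60.6, 43.4 and 55.1 CPM with leptin; the highest and the lowest of these 7 were m3 and f2, both rich in pituitary mRNA. The Manf estimate of -0.20 at 3 h became 0.05 without these 2 lysates. Hyou1 at 3 h was at 135, 110, 148 and 121 CPM with vehicle and 100, 118 and 95.7 CPM with leptin, with overlap (-0.30, 95% interval -0.61 to 0.01).

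**Figure D4:**
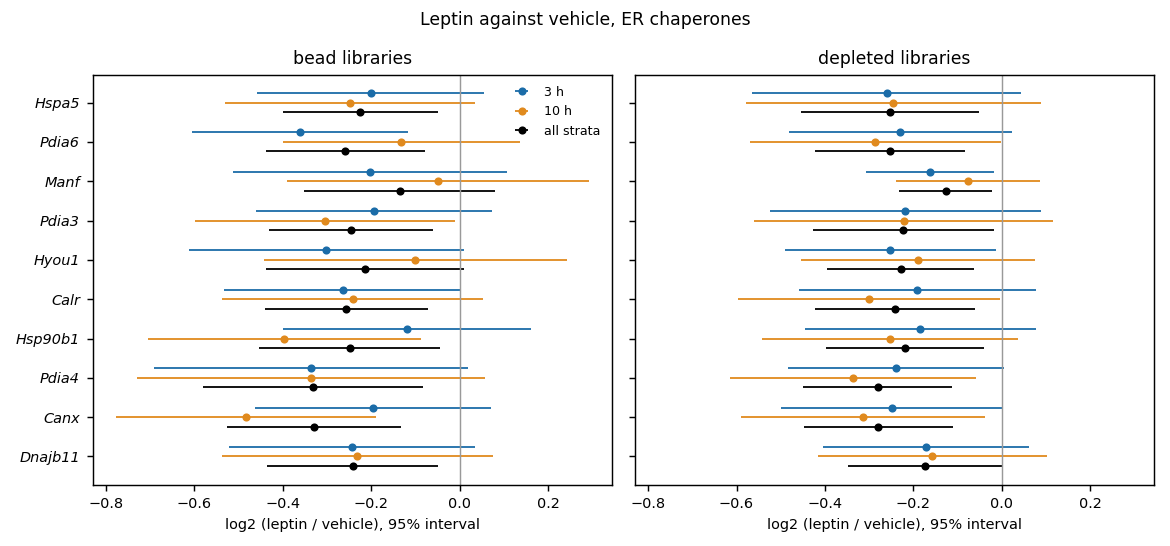
Log2 ratio of leptin to vehicle (x axis) with its 95% interval for each ER chaperone, in bead (left) and depleted (right) libraries, at 3 h (blue), at 10 h as the mean of both genotypes (orange) and over all strata (black). All estimates are below 0, most 3 h and 10 h intervals reach across 0, and none passed the adjusted edgeR test with the filter. Over the strata in the depleted fraction DESeq2 called 3, and 723 genes in all.

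Fitted over the 3 strata (wild type 3 h, wild type 10 h and ob/ob 10 h), the leptin estimates in beads were -0.14 (Manf) to -0.33 (Pdia4), with 0 of 10 called by the 3 tools (0.022% of all genes by edgeR) and 8 of 10 at an unadjusted p under 0.05 (11.05% of all genes). In the depleted fraction they were -0.13 (Manf) to -0.28 (Pdia4), with 0 called by edgeR or limma voom (0.623% of all genes by edgeR) and 9 of 10 unadjusted (15.7% of all genes). The lowest adjusted p-values were 0.101 for Pdia4 and 0.108 for Canx (edgeR). DESeq2 called 3 of 10 lower in the depleted fraction: Canx (adjusted p = 0.0173), Pdia4 (adjusted p = 0.0337) and Pdia6 (adjusted p = 0.0455). It called 723 genes in all there, against 119 by edgeR. Without the leptin lysate m24 of 3 h, edgeR called Canx at -0.35 (adjusted p = 0.0358) and Pdia4 at -0.35 (adjusted p = 0.0456). No other fit with 1 lysate left out called a member there. The range of all genes called in such fits stands in the last section. With no filter on low counts, edgeR called 8 of the 10 lower over the strata in depleted RNA and 1 (Canx) in beads, while 1422 genes in all were called in depleted RNA, against 119 with the filter.

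Markers of other cells also had mostly negative leptin estimates in the same libraries. Over the strata in beads, estimates were negative for 12 of 12 astrocyte, 12 of 12 oligodendrocyte and 12 of 12 microglia markers, with medians of -0.66, -0.50 and -0.78. None of these markers was called in beads. Over the strata in the depleted fraction, edgeR called Slc1a3 and Gjb6 of astrocytes lower. It also called C1qa, C1qc, Ctss, Csf1r, Trem2 and Laptm5 of microglia lower, and no oligodendrocyte marker. Summed astrocyte markers were at 920 to 1643 CPM with vehicle and 869 to 1280 CPM with leptin at 3 h in beads, and summed microglia markers at 41.7 to 95.7 and 31.9 to 60.4 CPM. In the depleted libraries at 3 h microglia markers summed to 118 to 169 CPM with vehicle and 82.8 to 107 CPM with leptin, without overlap, and no marker of these 3 lists was at 0 throughout. With the mean log2 CPM of the 36 glial markers as a covariate, the median leptin estimate of the 10 chaperones over the strata was -0.07 in place of -0.23 in the depleted fraction, and -0.19 in place of -0.25 in beads. By edgeR with the filter, no chaperone was called in either fraction with or without this covariate. The glial markers had mostly negative leptin estimates themselves, so this fit cannot separate them from leptin. At 3 h in beads, 12 of 12 endothelial and mural and 11 of 12 ependymal and tanycyte markers were negative too (medians -0.88 and -0.49), and 4 of 4 pituitary genes tested were positive (median 2.64). The leptin library f2 stood apart there: its bead Gh was at 538.6 CPM, against 0.37 and 0.29 CPM in m24 and f4. Among the vehicle libraries, m3 was at 57.5 CPM. The part of these other markers in the leptin values was not tested.

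**Figure D5:**
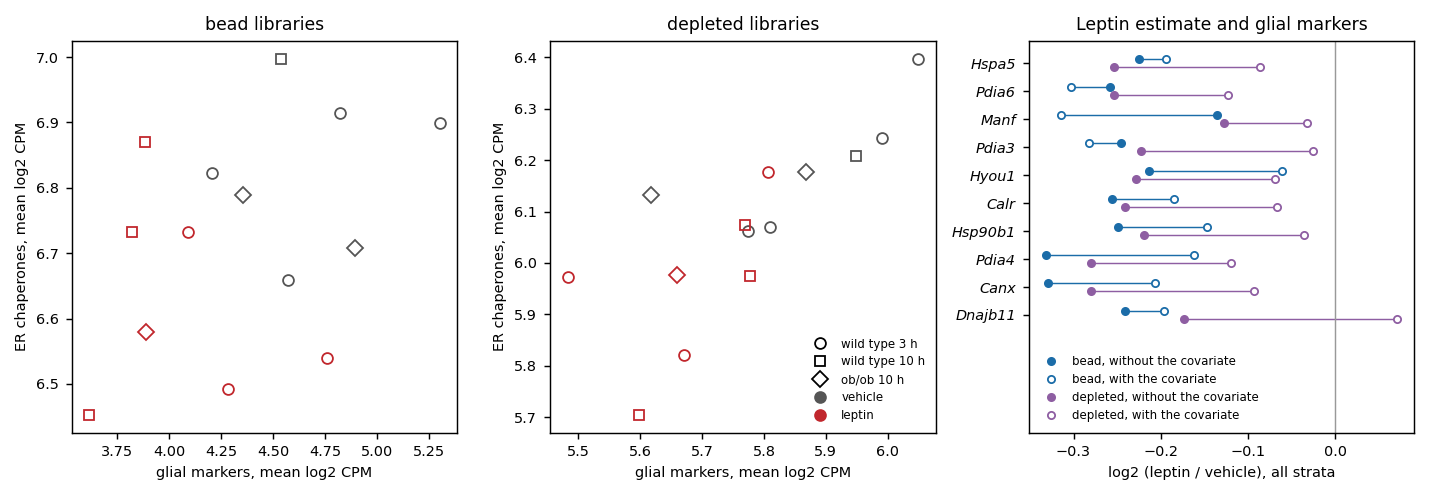
Mean log2 CPM of the 10 ER chaperones (y axis) against that of 36 glial markers (x axis) in bead (left) and depleted (middle) libraries, with symbols by genotype and time, grey for vehicle and red for leptin; at right, each chaperone's leptin estimate over all strata without (filled) and with (open) the glial covariate. In the depleted fraction every estimate lies nearer 0 with the covariate, and Dnajb11 crosses to 0.07; in beads Pdia6, Manf and Pdia3 move away from 0 instead.

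Some other ER lists had mostly negative leptin estimates at 3 h in beads too, where the median of all genes was -0.01. Leptin estimates over the remaining ER lists are not given here. At 3 h in beads, 12 of 12 other cochaperones (median -0.26), 11 of 11 other disulfide isomerases (median -0.15) and 12 of 13 glycan transfer and lectin genes (median -0.22) were negative, with no gene of these lists called. Cytosolic and mitochondrial chaperones were positive in 19 of 22 (median 0.14), again with none called. Atf3, a stress-induced transcription factor and ATF4 target, was the list gene called at 3 h in beads, higher at 2.27 (SE 0.326, adjusted p = 0.0453, edgeR), and over the strata in beads at 2.05 (SE 0.263, adjusted p = 0.0105). The 3 h call of Atf3 was lost under 11 of 24 alternatives (1.89 to 2.47 over all 24), among them 9 with 1 lysate left out, and the call over the strata only with the glial covariate (adjusted p = 0.14). Of the other ER genes, Tmx1, a membrane-bound thioredoxin-like isomerase, was called lower over the strata in the depleted fraction, at -0.23 (SE 0.0452, adjusted p = 0.0372), a call lost under 12 of 22 alternatives; with the glial covariate it was at -0.12. At 3 h in beads Xbp1 was at -0.13, Atf4 at 0.09, Ddit3 at -0.03 and Herpud1 at -0.20, none called, and at 10 h Xbp1 was at -0.02, Atf4 at 0.06, Ddit3 at -0.05 and Herpud1 at -0.08. In the depleted fraction these genes were at -0.16, 0.02, -0.07 and -0.14 at 3 h and at -0.15, 0.06, 0.07 and -0.08 at 10 h, again with no call.

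The leptin estimate did not differ detectably between beads and depleted RNA for any member. At 3 h the difference was -0.14 (Pdia6) to 0.06 (Hsp90b1), with 0 of 10 called (0.0102% of 19682 genes) and 0 of 10 unadjusted (3.15% of all genes). At 10 h it was -0.16 (Canx) to 0.16 (Pdia6), with 0 called (0% of all genes) and 0 unadjusted (6.75% of all genes). DESeq2 and limma voom called none. For Hspa5 the interval of the difference was -0.18 to 0.27 at 3 h and -0.24 to 0.26 at 10 h.

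Genotype and time were compared at the level of the vehicle and leptin groups together, and each coincides with a sequencing run, so that neither can be told apart from the run. In ob/ob against wild-type mice at 10 h, bead values ran from -0.53 (Pdia4) to 0.08 (Dnajb11), with 0 of 10 called (0.472% of all genes) and 1 of 10 unadjusted (9.78% of all genes). Pdia4 was at 18.5 and 18.4 CPM with vehicle and 13.6 CPM with leptin in ob/ob beads, and at 24.5 CPM with vehicle and 16.3, 23.98 and 23.7 CPM with leptin in wild-type beads. In the depleted fraction the values were -0.18 (Calr) to 0.23 (Dnajb11), with 0 called (5.57% of all genes) and 0 unadjusted (22.3% of all genes). For 10 h against 3 h in wild type, beads gave -0.04 (Hyou1) to 0.35 (Pdia3) with 0 called (0% of all genes) and 1 unadjusted (17.7% of all genes), and the depleted fraction -0.13 (Calr) to 0.06 (Pdia3) with 0 called (7.18% of all genes) and 0 unadjusted (23.4% of all genes). DESeq2 and limma voom called no member in these 4 comparisons. Among the stress genes, Atf4 was lower at 10 h in depleted RNA (-0.20, adjusted p = 0.0249, edgeR), a call lost without any 1 of 6 lysates, and Xbp1, Ddit3 and Herpud1 were not called in any of the 4; their bead values for genotype were -0.42, 0.26 and 0.06.

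The bead to depleted ratio of each of the 10 genes was above 1 in every lysate of every group. Hspa5 had bead to depleted ratios of 1.99, 2.13, 1.70 and 1.86 in the 3 h vehicle lysates, 1.96, 1.88 and 2.11 in the 3 h leptin lysates, 2.28 in the 10 h vehicle lysate and 2.26, 2.40 and 1.90 in the 10 h leptin lysates of wild type. In ob/ob lysates it was 2.03 and 1.85 with vehicle and 2.05 with leptin. The difference in enrichment between ob/ob and wild type at 10 h was -0.06 (Calr) to -0.39 (Pdia4), with 0 called by edgeR (0.0102% of all genes), DESeq2 or limma voom and 2 of 10 unadjusted (4.97% of all genes). Between 10 h and 3 h in wild type it was 0.01 (Hyou1) to 0.29 (Manf), with 0 called by the 3 tools (0% of all genes by edgeR) and 2 of 10 unadjusted (14.5% of all genes). The ratio of Pdia4 ran within wild type from 1.14 in the leptin lysate m24 of 3 h to 1.82 in a leptin lysate of 10 h.

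The members varied together between libraries, with higher correlations in the depleted fraction. Over the 14 depleted libraries Pearson's r of log2 CPM for the 45 pairs of members was 0.57 to 0.94 (median 0.86), and over the 14 bead libraries -0.03 to 0.93 (median 0.68). Manf (0.46) and Hyou1 (0.58) had the lowest r with the mean of the other 9 in beads, and Hspa5 the highest (0.89). These values are descriptions: libraries of a group share genotype, time and treatment, and the 10 genes of a library share its depth and scaling. Among genes of at least 10 CPM outside the 10, the most alike the members' mean in the 14 bead libraries were Amigo2 (r = 0.94), Parm1 (0.93), Slc39a6 (0.92), Elmod1 (0.91), Tram1l1 (0.91), Tm9sf2 (0.90), Dner (0.90), Pigu (0.90), Slc35e3 (0.90) and Mfsd1 (0.89), out of 10100 genes. In the 14 depleted libraries they were Txndc5 (0.98), Dpp6 (0.97), Pld3 (0.97), Bcap31 (0.96), Rpn1 (0.96), Tram1l1 (0.96), Disp2 (0.96), Emc3 (0.96), Ctsd (0.96) and Ctsb (0.96), out of 10251.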

How the data were processed

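RNA of 14 lysates was measured by single-end poly(A) RNA-seq, per the labels' protocols, with 1 bead and 1 depleted library each. The authors deposited 1 table of unnormalized counts per gene. STAR 2.7.6a and GRCm38.p6 are named, per the submitters' processing notes; the counting program and strand setting are not given there or in the labels. The members and gene lists were chosen with earlier results of these data known. In R 4.3.3, edgeR 4.0.16 was used on genes with 10 counts or more in 3 libraries or more, with TMM scaling, the robust quasi-likelihood F test (two-sided), Benjamini-Hochberg adjustment across every gene tested and a cutoff of 0.05. Bead and depleted libraries were compared over 28 libraries blocked by lysate, since the 2 fractions of a lysate are 1 tissue sample; in the pairing check, the fractions' deviations from their group means correlated at r = 0.119 to 0.539 in 12 lysates, 11 of which matched their own partner best. Leptin, genotype and time were tested in 14 libraries of a fraction with 6 groups, so a group of 1 library is assumed to vary like the rest (8 residual degrees of freedom), leptin also with a term for stratum, and differences between fractions in all 28. The 26 pairs of replicates all differed beyond sampling noise. Named genes were the 10 members; in each other list the 2 highest and the lowest called gene of at least 1 CPM in bead against depleted; Xbp1, Atf4, Ddit3 and Herpud1; list genes called for leptin; and the 10 genes most alike in log2 CPM with 0.5 added. RPKM used union exon lengths of a GRCm38 annotation, which held 55227 of the 55487 IDs. Alternatives were DESeq2 1.42.0 size factors or library totals, no filter (at least 1 count), at least 50 counts, DESeq2, limma voom (limma 3.58.1), each lysate left out, the lysates m3 and f2 left out, a fit with no block, vehicle lysates alone, a glial covariate, and 3 h libraries alone with and without the letter m or f. Models were checked on simulated counts. The labels mention no molecular identifiers, so counts may include PCR duplicates.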

Additional observations from a re-analysis of the deposited data

How the results depend on the processing

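The count of 10 ER chaperones higher in beads was the same under all 23 alternatives tried, including the fit without the lysate as a block (no replicate block), which also gave 10, and the count of all genes called ran from 12308 to 16368. The 2 fractions of a lysate are 1 tissue sample, and the block changed no call among the members. Counts of chaperones called for leptin, 0 in the report, changed in these cases: with no filter on low counts 1 was called at 10 h in beads, 4 at 3 h and 5 at 10 h in depleted RNA, and over all strata 1 in beads and 8 in depleted RNA, each lower with leptin; DESeq2 called 3 over all strata in depleted RNA, and leaving out single lysates gave 0 to 2 there, with 2 only without the leptin lysate m24 of 3 h. The unfiltered fit also called 1 chaperone in 10 h against 3 h beads. The cause of the unfiltered calls was not tested. Signs turned for values that were not called: Manf at 3 h in beads to 0.0466 without the pituitary-rich lysates m3 and f2, and, with the glial covariate, Hyou1 at 10 h in beads to 0.16, Hsp90b1, Calr, Pdia3 and Dnajb11 at 3 h in depleted RNA to 0.0508, 0.0462, 0.0305 and 0.113, and Dnajb11 in depleted RNA to 0.0169 at 10 h and 0.0709 over all strata. Of 1550 alternative values of members, 1518 kept direction and side of the threshold. Counts of all genes called moved more: with no filter, 640 in place of 0 for leptin at 3 h in depleted RNA, 592 in place of 1 at 10 h, 191 and 465 in place of 4 at 3 h and 10 h in beads, and over all strata 613 in place of 4 in beads and 1422 in place of 119 in depleted RNA. DESeq2 gave 62, 116, 22, 108, 140 and 723 for the same comparisons. For 10 h against 3 h in beads the unfiltered fit called 1351 and DESeq2 463, in place of 0, and 231 were called without the vehicle lysate m3; for ob/ob against wild type in beads these 2 fits called 394 and 228, in place of 86. In depleted RNA, genotype gave 1901 unfiltered in place of 1064 and time 2195 in place of 1372, and leaving out 1 lysate gave as few as 533 and 577. Over all strata in depleted RNA, leaving out 1 lysate gave 0 to 258 genes and the glial covariate 0; without m3 and f2, leptin over all strata called 423 genes in beads and 23 in depleted RNA. For the differences between fractions the unfiltered fit called 24 and 370 genes for leptin at 3 h and 10 h (2 and 0 in the report), 109 for genotype (2) and 1199 for time (0). Outside the members, Hspb1, Ero1lb and Fkbp2 lost their call under 13, 2 and 1 of 23 alternatives. Leaving out the wild-type vehicle or the ob/ob leptin lysate of 10 h gave no 10 h leptin or genotype value. Member counts were at least 255 per library, and groups held 1 to 4 libraries.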
